A study of Mus musculus with 9 samples.

Results

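The Hox genes encode homeodomain transcription factors that lie in 4 clusters in the mouse, Hoxa, Hoxb, Hoxc and Hoxd. They were followed here through the steps by which mammary cells are isolated. Members were taken as the genes whose symbol is Hoxa, Hoxb, Hoxc or Hoxd followed by digits alone, each read from an array row that carries only that symbol. This gave 37 Hox genes among 19938 genes in all, with 1 row for each. They comprise 10 Hoxa, 9 Hoxb, 9 Hoxc and 9 Hoxd genes. Hoxb8 is not analysed here, as its symbol occurs only on a row that it shares with Hoxb7.

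The cells were mammary epithelial preparations from wild-type C3H female mice aged 8 to 9 weeks, and all of them had been released from fat tissue with collagenase. The untrypsinized group had no further treatment, the trypsinized group was then digested with trypsin, and the mock sorted group passed a mock FACS sort (fluorescence-activated sorting of cells, here as a sham) after trypsin. There were 3 Affymetrix whole-transcript arrays a group, which the labels call biological replicates without naming the animals behind them. The p-values therefore measure only how far these samples spread, which may in part be technical.

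Hox proteins give cells their position along the body axis. Genes at one end of a cluster (low numbers) are switched on early and anteriorly, and genes at the other end later and more posteriorly. Genes of the same number in different clusters are paralogs and often act redundantly. Hox proteins bind DNA together with cofactors of the PBX and MEIS families, and many adult cells, fibroblasts of human skin among them, keep the Hox pattern of their origin. In the mouse mammary gland, Hoxa9, Hoxb9 and Hoxd9 act together in the gland's growth at pregnancy, Hoxc6 is needed for normal gland development, and Hoxc8 takes part in placing the mammary rudiments. The members are grouped below as anterior (paralog groups 1 to 3, 7 genes), central (groups 4 to 8, 14 genes) and posterior (groups 9 to 13, 16 genes).

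The samples were not epithelium alone. Summed over 17 luminal markers, intensity was 103004 to 106623 in the untrypsinized, 111269 to 113198 in the trypsinized and 116378 to 117652 in the mock sorted arrays, and over 22 basal and myoepithelial markers it was 91150 to 93449, 88143 to 90278 and 81281 to 83734. Markers of other cell types were also present and moved between the groups, as given below beside the Hox genes. Lymphocyte markers (summed intensity over 13 genes) were at 5259 to 6059 in the untrypsinized arrays, 8571 to 23475 in the trypsinized and 7452 to 20425 in the mock sorted arrays. All 6 arrays of the later groups lay above the untrypsinized ones, and replicate 1 of each stood apart at 23475 and 20425, so the calls of Hox genes are given with and without those replicates. In bulk RNA, fewer cells of a type and less RNA per cell cannot be told apart. Median intensity over all rows was 345 to 408 per array; precision is limited by the 3 arrays a group.

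Values are log2 of the intensity plus 1, and each difference is a difference of group means on that scale with its standard error (SE), 3 arrays against 3. This scale understates the change of dim genes, and levels of different genes are not compared. Calls needed at least a 1.5-fold difference (0.58 on the log2 scale) and an adjusted p no higher than 0.05, with limma and Benjamini-Hochberg adjustment over all 19938 genes. The 3 comparisons share arrays: the trypsinized arrays enter both single steps, and mock sorted against untrypsinized arrays spans both. Their values are therefore set side by side and not counted as separate support.

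Across the whole isolation, from untrypsinized to mock sorted, 5 of 37 Hox genes were called lower (13.5%) and 0 higher. Over all genes tested, 3.4% were called lower and 1.08% higher. The 5 are Hoxd8, Hoxd9 and Hoxd4 of the Hoxd cluster and Hoxc6 and Hoxc8 of the Hoxc cluster. The median difference over the 37 genes was -0.01, beside 0.05 over all genes, and 21 lay lower and 16 higher by sign (40.1% and 59.9% of all genes). At the adjusted p without a minimum fold, 10 Hox genes were lower (27% of them, beside 18% of all genes) and 4 higher (10.8%, beside 21%). The moderated F test over the 3 groups passed for 13 Hox genes (35.1%), beside 33.2% of all genes, which is close to the background. At an unadjusted p under 0.05, limma put 13 Hox genes lower (35.1%, beside 21.3% of all genes) and 6 higher (16.2%, beside 27.9%).

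**Figure D1:**
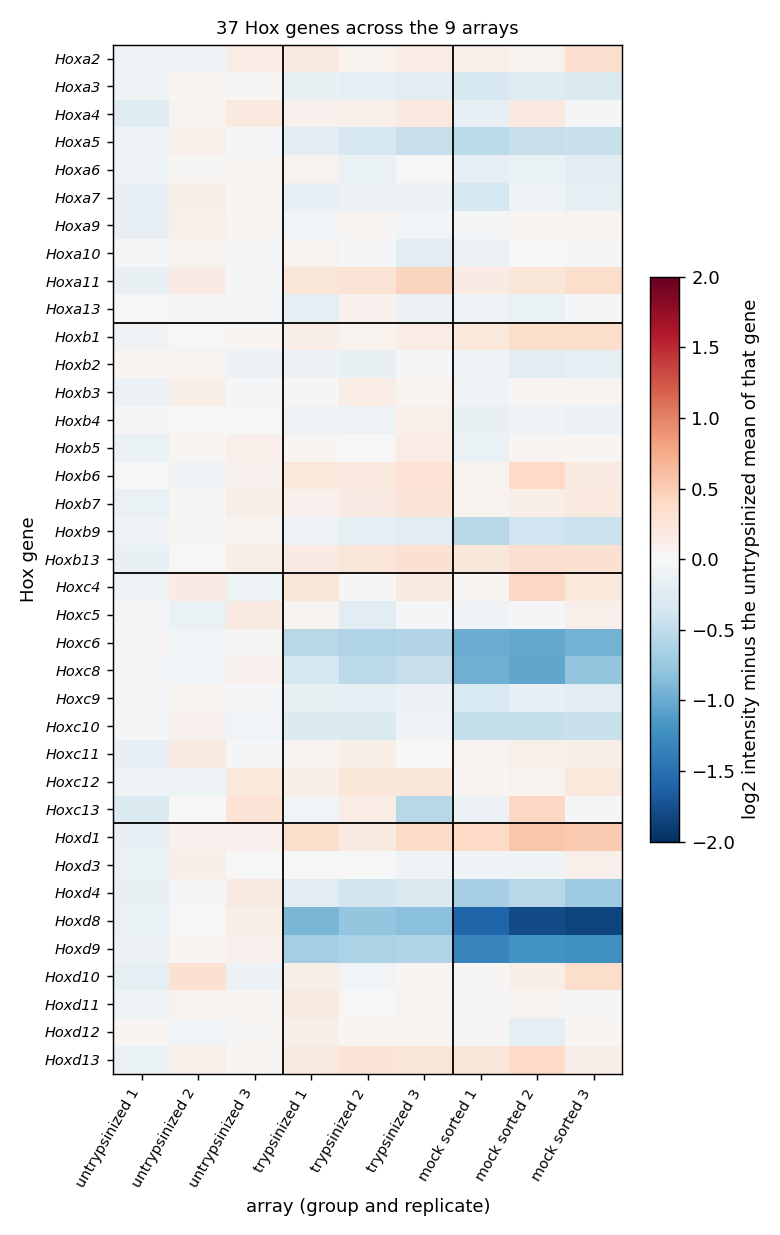
Each row is 1 of the 37 Hox genes, by cluster and paralog group, and each column 1 of the 9 arrays. Colour gives log2 intensity minus that gene's untrypsinized mean (blue lower, red higher). Hoxd8, Hoxd9, Hoxd4, Hoxc6 and Hoxc8 are blue in all 3 mock sorted arrays, while most other rows stay pale.

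Hoxd8 had the largest difference of the family in each comparison. This central gene of the cluster encodes a homeodomain factor of the trunk. Its log2 intensity was 9.23, 9.37 and 9.48 in the untrypsinized arrays, 8.44, 8.59 and 8.52 in the trypsinized arrays, and 7.76, 7.57 and 7.52 in the mock sorted arrays. The groups did not overlap, and every trypsinized array lay between the other two groups. Hoxd8 fell by 0.84 with trypsin (SE 0.08, adjusted p = 0.000604 with limma) and by a further 0.90 with the mock sort (SE 0.08, adjusted p = 0.000493). Over both steps it fell by 1.74 (SE 0.08, adjusted p = 3.55e-06), a 3.35-fold difference. Without the trypsinized replicate 1, which was high in lymphocyte markers, the difference with trypsin was -0.81 and that with the mock sort -0.94. Without the mock sorted replicate 1 the difference with the mock sort was -0.97. All 5 genes stayed called over both steps without that array, at -1.81 for Hoxd8, -1.21 for Hoxd9, -0.98 for Hoxc6, -0.91 for Hoxc8 and -0.64 for Hoxd4.

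Hoxd9, the neighbour of Hoxd8 and 1 of the paralogs that act redundantly in the mammary gland, went the same way. Its values were 8.82, 8.97 and 9.02 before trypsin, 8.25, 8.30 and 8.33 after it, and 7.62, 7.74 and 7.70 after the mock sort. Again no group overlapped another. It fell by 0.64 with trypsin (SE 0.06, adjusted p = 0.000504 with limma), by 0.61 with the mock sort (SE 0.06, adjusted p = 0.000614) and over both it fell by 1.25 (SE 0.06, adjusted p = 3.42e-06). The call for the mock sort step lay close to the minimum fold. Without the mock sorted replicate 1 the difference was -0.57 (adjusted p = 0.00279 with limma), just under that fold. With all arrays and a pseudocount of 16 in place of 1 it was -0.57 as well. Without the trypsinized replicate 1, Hoxd9 differed by -0.62 with trypsin and by -0.63 with the mock sort, and both stayed called. With all arrays and the values as deposited, Hoxd8 and Hoxd9 were the only Hox genes called in either single step.

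Hoxd4, a central gene that lies within the span of Hoxd3, changed less. Its values were 8.35, 8.48 and 8.68 in untrypsinized, 8.27, 8.14 and 8.22 in trypsinized and 7.83, 7.95 and 7.77 in mock sorted arrays, and no group overlapped another. It differed by -0.29 with trypsin (SE 0.09, adjusted p = 0.0384 with limma), by -0.36 with the mock sort (SE 0.09, adjusted p = 0.0572) and by -0.65 over both (SE 0.09, adjusted p = 0.000716, 1.57-fold). The call is lost without untrypsinized replicate 3, where the difference was -0.56. Hoxd3, whose span holds Hoxd4, did not pass the test over both steps (-0.02, 95% interval -0.20 to 0.16).

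The other Hoxd genes did not follow. Hoxd10, on the far side of Hoxd9, differed by 0.17 over both steps (95% interval -0.14 to 0.48). Hoxd11 differed by -0.00 (-0.15 to 0.14) and Hoxd12 by -0.05 (-0.20 to 0.10). These posterior genes pattern the limbs and the urogenital tract in the mouse. The step in the values therefore lay between Hoxd9 and Hoxd10, neighbours in the order of the RefSeq table of the GRCm38.p6 assembly. Hoxd13, at the end of the cluster, passed the adjusted p in the other direction with a difference of 0.26 (SE 0.08, adjusted p = 0.0358 with limma). Its adjusted p rose to as much as 0.736 under the other settings tried, so this pass depends on the setting.

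Hoxd1, the anterior end of the cluster, had the highest difference of the family over both steps. Its values were 9.42, 9.67 and 9.67 in untrypsinized, 9.95, 9.76 and 9.96 in trypsinized, and 9.98, 10.15 and 10.12 in mock sorted arrays. The mock sorted arrays lay above all untrypsinized and trypsinized arrays, and the trypsinized arrays lay above the untrypsinized ones. The difference was 0.30 with trypsin (SE 0.09, adjusted p = 0.0351 with limma), 0.19 with the mock sort (SE 0.09, adjusted p = 0.295) and 0.49 over both (SE 0.09, adjusted p = 0.00278). This is 1.41-fold and so not called. Set to a common median of all rows, the rise over both steps was 0.34 (adjusted p = 0.00391), while that with trypsin no longer passed (adjusted p = 0.0986). Among the 4 clusters, Hoxd held both the lowest and the highest difference of the family over both steps.

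The promoter windows of the Hoxd genes on both sides of the step, with that of Hoxd4, are shown because neighbouring genes differed there. They are the 250 bases before the RefSeq start, in GRCm38.p6 on the strand given, and capitals mark TAAT on either strand, the core bound by homeodomains.
Hoxd10, chr2:74691641-74691890, plus strand: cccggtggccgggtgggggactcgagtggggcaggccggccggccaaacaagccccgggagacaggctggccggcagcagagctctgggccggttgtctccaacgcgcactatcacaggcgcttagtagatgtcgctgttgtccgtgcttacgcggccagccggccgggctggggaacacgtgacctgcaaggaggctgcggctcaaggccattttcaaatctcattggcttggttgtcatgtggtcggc
Hoxd9, chr2:74697513-74697762, plus strand: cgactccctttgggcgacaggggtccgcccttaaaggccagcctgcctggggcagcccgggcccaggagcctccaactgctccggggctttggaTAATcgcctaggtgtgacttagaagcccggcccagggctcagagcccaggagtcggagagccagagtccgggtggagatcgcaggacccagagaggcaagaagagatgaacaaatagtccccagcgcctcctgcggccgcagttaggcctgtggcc
Hoxd8, chr2:74704365-74704614, plus strand: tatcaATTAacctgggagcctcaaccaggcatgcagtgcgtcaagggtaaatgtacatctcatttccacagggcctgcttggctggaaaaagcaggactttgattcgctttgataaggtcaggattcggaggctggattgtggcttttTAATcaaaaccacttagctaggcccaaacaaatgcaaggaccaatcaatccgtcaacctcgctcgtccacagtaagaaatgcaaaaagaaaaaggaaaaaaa
Hoxd4, chr2:74721728-74721977, plus strand: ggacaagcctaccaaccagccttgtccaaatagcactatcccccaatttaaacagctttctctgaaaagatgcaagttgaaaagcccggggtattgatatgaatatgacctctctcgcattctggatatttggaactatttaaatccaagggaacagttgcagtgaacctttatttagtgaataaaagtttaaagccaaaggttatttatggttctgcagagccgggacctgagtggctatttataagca
TAAT occurred 0 times in the Hoxd10 window, 1 time in that of Hoxd9, 2 times in that of Hoxd8 and 0 times in that of Hoxd4. It was present in 54.9% of the 32851 windows of the same length and in 18 of 24 windows of 22 Hox genes. The TATA box letters TATAAA, searched on both strands, occurred once, in the Hoxd4 window (12.4% of all windows), and the MEIS core TGACAG in none of the 4 (15.9% of all windows). CG pairs numbered 20, 13, 6 and 3 in the order printed, beside a median of 6 over all windows. Guanine and cytosine made up 65.6%, 65.2%, 44.4% and 40.4% of the bases. These letters are a description of the windows, and binding was not measured.

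In the Hoxc cluster, Hoxc6 and Hoxc8 were called lower over both steps. Hoxc6, needed in mouse mammary development, had the smallest spread of the 5 called genes. Its values were 8.62, 8.55 and 8.62 before trypsin, 8.04, 8.00 and 8.01 after it, and 7.61, 7.58 and 7.65 after the mock sort. No array of one group came near another group. It fell by 0.98 over both steps (SE 0.04, adjusted p = 1.83e-06 with limma, 1.98-fold). With trypsin it differed by -0.58 (SE 0.04, adjusted p = 0.000205), just short of 1.5-fold, and with the mock sort by -0.40 (SE 0.04, adjusted p = 0.000543). Without trypsinized replicate 1 the trypsin step was called, at -0.59, as it was without untrypsinized replicate 2, at -0.60. The trypsin step of Hoxc6 was also called with a common median of all rows (-0.71, adjusted p = 5.96e-05 with limma). With quantile normalization it was called as well (-0.71, adjusted p = 0.000101 with limma).

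Hoxc8, which helps to place the mammary rudiments in the mouse embryo, read 9.28, 9.24 and 9.38 in untrypsinized, 8.96, 8.76 and 8.83 in trypsinized and 8.33, 8.26 and 8.51 in mock sorted arrays. Each group lay apart from the other two. It fell by 0.93 over both steps (SE 0.08, adjusted p = 6.49e-05 with limma, 1.90-fold), with -0.45 for trypsin (adjusted p = 0.00604) and -0.48 for the mock sort (adjusted p = 0.00989). Hoxc9 and Hoxc10, the next genes in the order of the cluster, passed the adjusted p over both steps without reaching 1.5-fold, at -0.23 (SE 0.05, adjusted p = 0.00669) and -0.46 (SE 0.07, adjusted p = 0.00106). Hoxc10 takes part in hindlimb innervation in the mouse. From Hoxc6 to Hoxc10 all 4 genes were therefore lower at the adjusted p.

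On either side of that stretch the Hoxc genes did not pass the test. Hoxc5 differed by 0.00 over both steps (95% interval -0.22 to 0.22) and Hoxc4 by 0.22 (-0.03 to 0.46), and Hoxc11 by 0.09 (SE 0.08). Hoxc12 differed by 0.11 (SE 0.09). Hoxc13, known for hair and nail formation, differed by 0.09 with the widest spread of the family (SE 0.22). For these 5 genes a change smaller than the intervals could not have been seen. Hoxc11, Hoxc12 and Hoxc13 also lay among the dim rows described below in every group, so a fall of theirs could not have been seen in full.

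**Figure D2:**
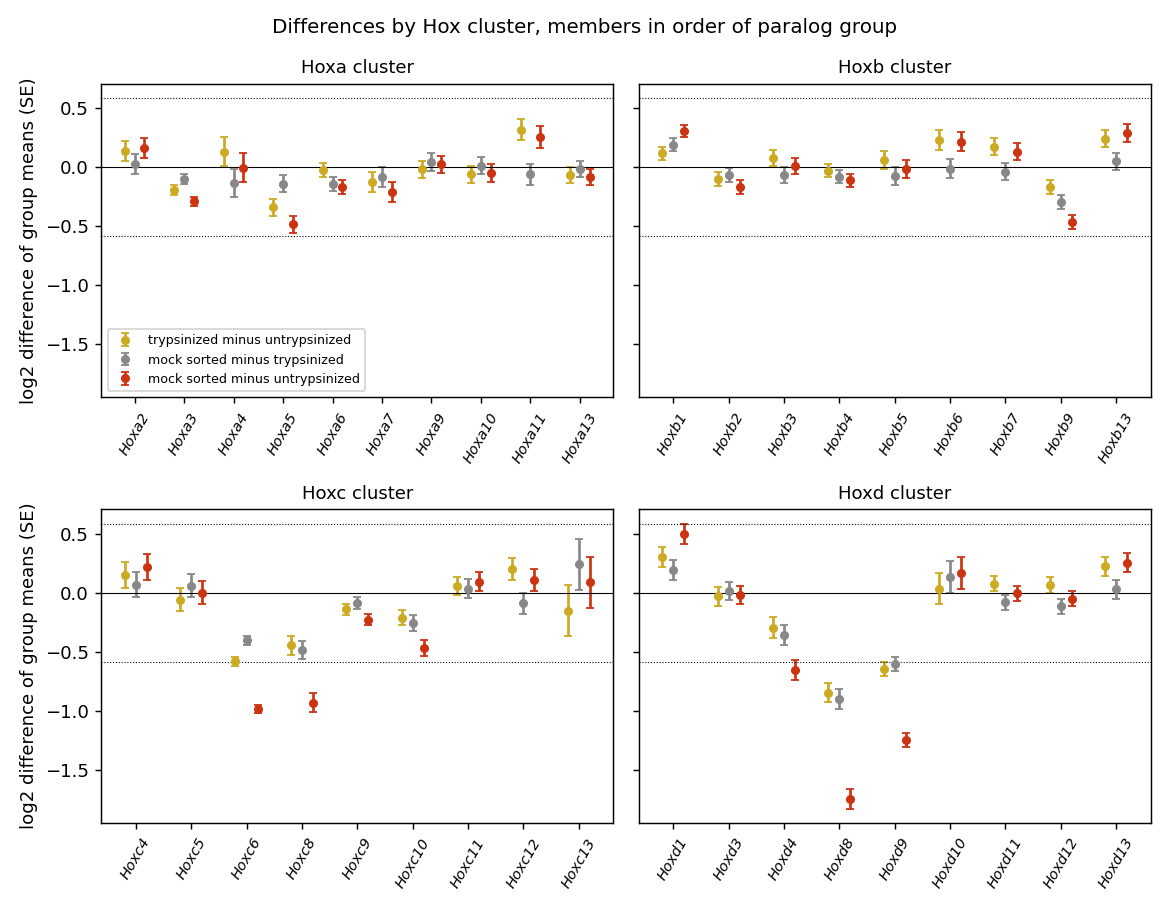
The log2 difference of group means (points) with its SE (bars) for every Hox gene, in order of paralog group within each cluster, for trypsinized minus untrypsinized (yellow), mock sorted minus trypsinized (grey) and mock sorted minus untrypsinized (red). Dotted lines mark 1.5-fold. The red points of Hoxc6, Hoxc8, Hoxd4, Hoxd8 and Hoxd9 lie below the lower line, from -0.65 to -1.74, and those of the Hoxa and Hoxb clusters lie within the lines.

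The Hoxa and Hoxb clusters had no called gene in any comparison, and over both steps 4 of 10 Hoxa and 2 of 9 Hoxb genes were lower at an unadjusted p under 0.05 with limma, and 1 and 3 were higher, beside 21.3% and 27.9% of all genes. Hoxa5, whose human counterpart activates the p53 gene in breast cells, had the largest difference among them. Its values were 7.95, 8.14 and 8.02, then 7.81, 7.71 and 7.57, then 7.49, 7.58 and 7.59. The trypsinized and mock sorted arrays overlapped, and both lay below the untrypsinized arrays. It differed by -0.34 with trypsin (SE 0.07, adjusted p = 0.0119 with limma) and by -0.48 over both steps (SE 0.07, adjusted p = 0.00134).

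Hoxb9 is 1 of the mammary paralogs of group 9. It read 8.90, 9.00 and 9.03 in untrypsinized, 8.87, 8.80 and 8.74 in trypsinized and 8.42, 8.58 and 8.54 in mock sorted arrays. Its 3 groups were again apart. It differed by -0.46 over both steps (SE 0.06, adjusted p = 0.000595 with limma), and by -0.29 with the mock sort (adjusted p = 0.027). The latter did not pass with the replicate number as a block (adjusted p = 0.0563), nor without trypsinized replicate 1 or 2 or mock sorted replicate 1 or 3, where its adjusted p reached 0.0975. Hoxa3, which acts in thymus and pharyngeal development, was lower by less (-0.29, SE 0.04, adjusted p = 0.00107).

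Some members of these clusters were higher. Hoxa11, a limb and uterus gene, read 7.49, 7.80 and 7.61 before trypsin, 7.87, 7.91 and 8.08 after it and 7.80, 7.87 and 7.99 after the mock sort. The trypsinized arrays lay above the untrypsinized ones, and the mock sorted arrays overlapped the trypsinized ones and lay just above the highest untrypsinized value. The rise with trypsin was 0.32 (SE 0.09, adjusted p = 0.0354 with limma). It no longer passed once arrays were set to a common median (adjusted p = 0.143). Over both steps Hoxb1, a hindbrain gene, differed by 0.30 (SE 0.05, adjusted p = 0.0031), and Hoxb13, known in prostate development, by 0.29 (SE 0.07, adjusted p = 0.0161). Hoxb1 did not pass with quantile normalization, where it differed by 0.14 (adjusted p = 0.0524 with limma). With a common median of all rows it differed by 0.16 and passed (adjusted p = 0.0406). The adjusted p of Hoxb13 reached 0.461 under the settings tried.

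**Figure D3:**
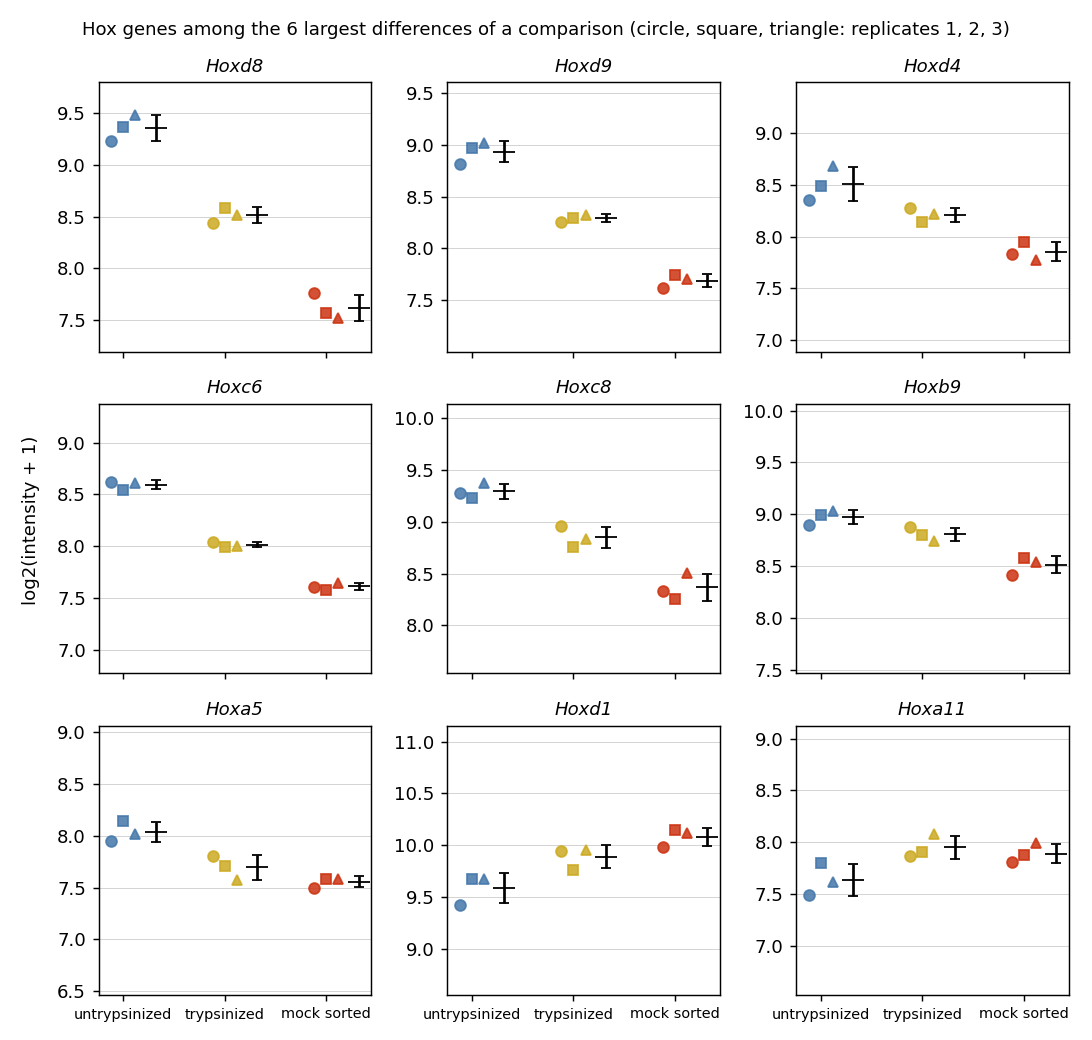
Log2 intensity of the 9 Hox genes that were among the 6 largest differences of at least 1 comparison, by array (circle, square and triangle for replicates 1, 2 and 3) in the 3 groups, with the group mean and SD (bars). Axes have the same span and different positions. In Hoxd8, Hoxd9, Hoxd4, Hoxc6, Hoxc8 and Hoxb9 the 3 groups do not overlap and step down, and in Hoxd1 they step up.

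The single steps gave smaller counts. Trypsin against no trypsin asked which transcripts differed after the digestion: 2 of 37 Hox genes were called lower (5.41%), beside 0.933% of all genes, and 0 higher, beside 0.532%. With limma 10 were lower and 6 higher at an unadjusted p under 0.05, beside 17.1% and 22.6% of all genes. By sign alone 20 were lower and 17 higher, beside 41.1% and 58.9% of all genes. Without a minimum fold 8 were lower at the adjusted p (21.6%, beside 11.5%): Hoxd8, Hoxd9, Hoxd4, Hoxc6, Hoxc8, Hoxc10, Hoxa5 and Hoxa3. Hoxd1, Hoxa11 and Hoxb13 were higher (8.11%, beside 13.9%). With 1 array left out, the adjusted p reached 0.102 for Hoxd4, 0.145 for Hoxc10, 0.108 for Hoxd1, 0.111 for Hoxa11 and 0.137 for Hoxb13. The groups did not overlap in 10 genes that were lower (27%, beside 19.4%) and in 6 that were higher (16.2%, beside 25%). Set to a common median, 13 were lower and 0 higher at the adjusted p, so no rise with trypsin passed there. This setting moved the median of all genes from 0.04 to -0.09. The share of all genes that passed as lower under it is not given, so the 13 have no background beside them.

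The mock sort against trypsin alone asked which transcripts differed after the sham sort: 2 of 37 Hox genes were called lower (5.41%), beside 1.17% of all genes, and 0 higher, beside 0.0251%. With limma 9 were lower and 1 higher at an unadjusted p under 0.05, beside 11.4% and 5.78% of all genes. By sign alone 24 were lower and 13 higher, beside 49% and 51% of all genes. Hoxd8, Hoxd9, Hoxc6, Hoxc8 and Hoxb9 were lower at the adjusted p alone (13.5%, beside 4.2%) and none higher (0.466% of all genes). The groups did not overlap in 9 genes that were lower (24.3%, beside 14.3%) and in 2 that were higher, beside 9.74%. The median Hox difference was -0.07, beside 0.00 over all genes. Over both steps the groups did not overlap in 12 genes that were lower (32.4%, beside 23.4%) and in 5 that were higher (13.5%, beside 28.7%).

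By position, the called genes were mostly central members of the Hoxc and Hoxd clusters. Of 14 central members 4 were called lower over both steps (Hoxd8, Hoxd4, Hoxc6 and Hoxc8), beside 3.4% of all genes. Of 16 posterior members 1 was called (Hoxd9) and of 7 anterior members 0. Among the anterior members 2 were lower and 2 higher at an unadjusted p under 0.05 with limma (21.3% and 27.9% of all genes). The called central members were 2 of 4 in Hoxc and 2 of 2 in Hoxd, with 0 of 4 in Hoxa and 0 of 4 in Hoxb. Central medians over both steps were -0.46 in Hoxc, -1.20 in Hoxd, -0.19 in Hoxa and 0.06 in Hoxb. The median difference over both steps was -0.14 for central, 0.01 for posterior and 0.01 for anterior members. For trypsin alone the medians were -0.04, 0.01 and 0.08, and for the mock sort alone -0.11, -0.04 and 0.01. Per array, the central median ran from -0.16 to -0.09 against its untrypsinized mean in the mock sorted arrays, and the untrypsinized arrays themselves ran from -0.09 to 0.08. In all 3 classes the mock sorted medians overlapped the untrypsinized ones. With a common median of all rows the medians over both steps were -0.29 for central, -0.14 for posterior and -0.14 for anterior members, so the sign turned for posterior and anterior members and the central members stayed lowest. Of the posterior members, Hoxa9, Hoxa10, Hoxa11, Hoxa13, Hoxb13, Hoxc9 to Hoxc13, Hoxd12 and Hoxd13 lay among the dim rows described below in every group. Of the central members Hoxa5 and Hoxb5 did, and of the anterior members Hoxa3 and Hoxd3. A fall of such genes could not have been seen in full, which limits any reading by position. The classes were not tested against each other.

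By cluster, the medians over both steps were -0.07 for Hoxa, 0.01 for Hoxb, 0.00 for Hoxc and -0.02 for Hoxd, and with a common median of all rows -0.22, -0.14, -0.15 and -0.17. Hoxd held 3 called genes and Hoxc 2, and their medians lay near 0. In summed intensity the 9 Hoxc genes ran from 2601 to 2826 in untrypsinized, from 2337 to 2468 in trypsinized and from 2075 to 2295 in mock sorted arrays, with no overlap. The 9 Hoxd genes ran from 3286 to 3793, from 3189 to 3382 and from 2991 to 3179, where the untrypsinized and trypsinized ranges overlapped.

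Paralogs of the same number had unlike differences. In group 9, Hoxd9 differed by -1.25 over both steps, Hoxb9 by -0.46, Hoxc9 by -0.23 and Hoxa9 by 0.02 (95% interval -0.14 to 0.19). In group 6, Hoxc6 differed by -0.98, Hoxa6 by -0.17 and Hoxb6 by 0.22. In group 4, Hoxd4 differed by -0.65, Hoxb4 by -0.11, Hoxa4 by -0.00 and Hoxc4 by 0.22. Both measured genes of group 8 were called, and Hoxb1 and Hoxd1 of group 1 both lay higher.

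A difference taken within an array does not depend on a factor that scales the whole array. The pairs were chosen after their values were seen and are a description. Hoxd9 minus Hoxd10 changed by -0.68 with trypsin and by -1.42 over both steps, and Hoxd8 minus Hoxd3 by -0.81 and -1.73. Hoxc6 minus Hoxc5 changed by -0.52 and -0.98, and Hoxd9 minus its paralog Hoxa9 by -0.62 and -1.27. Hoxd3 and Hoxa9 lay among the dim rows described below in every group, so a fall of theirs could not have been seen in full.

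Many Hox rows were dim. Against 1015 olfactory receptor genes, taken as a reference for dim rows, 19 of 37 Hox means in the untrypsinized arrays, 19 in the trypsinized and 17 in the mock sorted arrays lay above the 95th percentile (8.21 on the log2 scale). In all 3 groups 15 members lay above it and in no group 16. Hoxd8 and Hoxd9 lay above it until the mock sort and below it afterwards, and Hoxc6 and Hoxd4 lay above it before trypsin alone. Hoxa5 and Hoxa11 never did. The mock sorted values of Hoxd8, Hoxd9, Hoxc6 and Hoxd4 are therefore near those of dim rows.

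Markers of several other cell types fell over the same steps. Of 19 endothelial markers 18 were called lower over both steps (median -1.48). With trypsin alone 4 were called, or 10 with a common median of all rows and 5 with quantile normalization. Their summed intensity was 50409 to 57334 in untrypsinized, 40489 to 40969 in trypsinized and 20108 to 23762 in mock sorted arrays. Of 11 pericyte and vascular smooth muscle markers 7 were called, or 10 with a common median of all rows (summed intensity 18070 to 20191, 14437 to 14805 and 8621 to 9385 in the same order), and of 8 Schwann cell markers 5 (18309 to 19848, 13055 to 13407 and 9966 to 10393). Of 15 adipocyte markers 8 were called (31891 to 35672, 26567 to 27405 and 18095 to 19437). The defining endothelial marker Pecam1, an adhesion protein of vessel lining, fell by 1.54 (SE 0.08, adjusted p = 6.2e-06 with limma). No marker was listed at 0. Of 19 skeletal muscle markers 5 were called lower over both steps and of 21 macrophage markers 3, and 3 of 13 lymphocyte markers were called higher. Beside the counts of these lists as deposited, 3.4% of all genes were called lower over both steps and 1.08% higher. With trypsin alone 0.933% of all genes were called lower.

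Fibroblast markers fell by less. Of 22, 3 were called lower over both steps as deposited, beside 3.4% of all genes. With a common median of all rows 10 were called, and with quantile normalization 3. Shares of all genes under these scalings are not given. As deposited, their median was -0.39, with a summed intensity of 70365 to 78526 before trypsin, 63324 to 69731 after it and 58174 to 63466 after the mock sort. Pdgfra, a fibroblast receptor, fell by 0.61 (SE 0.11, adjusted p = 0.00345 with limma). Of the epithelial lists, 0 of 17 luminal markers were called in any comparison. Over both steps 12 were higher and 1 lower at the adjusted p (3 and 1 with a common median of all rows, 12 and 1 with quantile normalization). Of 22 basal markers 2 were called lower over both steps and 1 higher. At the adjusted p 12 basal markers were lower and 2 higher (19 and 1 with a common median of all rows, 10 and 2 with quantile normalization). Of all genes 18% were lower and 21% higher at the adjusted p as deposited. The part of these cell types in the Hox differences was not tested.

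**Figure D4:**
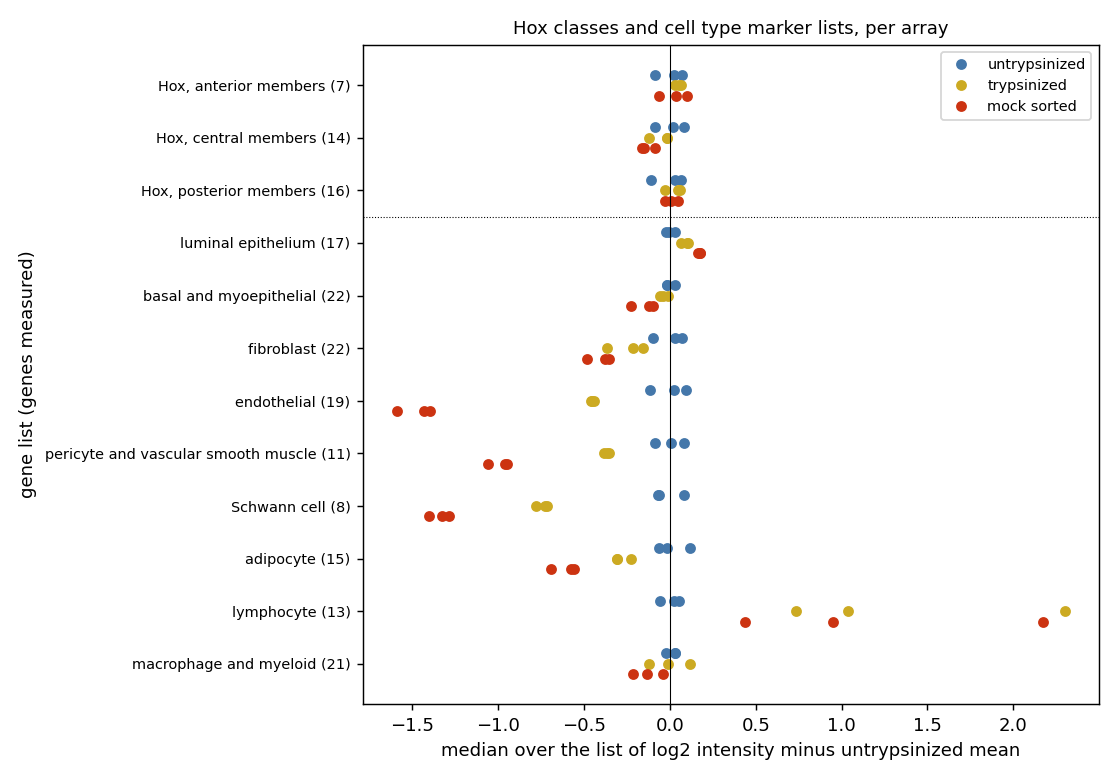
Median over each gene list of log2 intensity minus the gene's untrypsinized mean, 1 point per array, for the 3 Hox classes and 9 marker lists (number of genes in brackets). The Hox classes stay within 0.2 of 0, the endothelial, pericyte, Schwann cell and adipocyte lists step down with each treatment, and the lymphocyte list is raised in all 6 trypsinized and mock sorted arrays (0.44 to 2.30) and highest in replicate 1 of each.

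Of 8 measured PBX, MEIS and PREP genes, the cofactors of Hox proteins, 1 was called lower over both steps, beside 3.4% of all genes. This gene, Meis2, read 9.05, 8.93 and 9.16 in untrypsinized, 8.94, 8.59 and 8.70 in trypsinized and 8.52, 8.00 and 8.29 in mock sorted arrays. The mock sorted arrays lay below all others, and the trypsinized arrays overlapped the untrypsinized ones. Meis2 fell by 0.78 (SE 0.14, adjusted p = 0.00328 with limma). Pbx3, Pbx4, Meis1 and Meis3 were higher at the adjusted p, by 0.23 to 0.28, and Pbx2 was also lower (-0.19). Of all genes 21% were higher and 18% lower at the adjusted p. With a common median of all rows, however, 0 of the 8 were higher and 3 lower, and with quantile normalization 4 were higher and 3 lower. The highest adjusted p of Meis1 under the settings tried was 0.0535 and that of Pbx3 0.344.

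Of 12 measured genes that act upstream of Hox genes or are their ParaHox relatives, 1 was called lower over both steps, beside 3.4% of all genes. Rarb, a retinoic acid receptor, read 8.37, 8.29 and 8.48 in untrypsinized, 7.80, 7.93 and 7.86 in trypsinized and 7.41, 7.66 and 7.66 in mock sorted arrays, with no overlap between groups. This receptor is itself induced by retinoic acid. It differed by -0.52 with trypsin (SE 0.08, adjusted p = 0.00363 with limma) and by -0.80 over both steps (SE 0.08, adjusted p = 0.000155). Gdf11 passed the adjusted p over both steps with limma, at -0.49 (adjusted p = 0.00143). This growth factor shifts Hox patterns along the trunk in the mouse. Cdx2 and Evx2 were higher at the adjusted p, at 0.28 and 0.23, beside 21% of all genes higher and 18% lower. With a common median of all rows, however, 0 of the 12 were higher, and with quantile normalization 1. Meis2 and Rarb were called over both steps in all 17 settings tried.

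Of 24 measured chromatin regulators of Hox genes, 0 were called in any comparison, and with limma 9 were higher and 1 lower over both steps at an unadjusted p under 0.05 (27.9% and 21.3% of all genes). The adjusted p was passed by 8 that were higher and 1 that was lower (21% and 18% of all genes), but by 4 and 7 with a common median of all rows and by 9 and 0 with quantile normalization. Kmt2a, the trithorax methyltransferase that maintains Hox expression, differed by 0.43 with trypsin (SE 0.07, adjusted p = 0.00493) and by 0.53 over both steps (SE 0.07, adjusted p = 0.000832). Kmt2d, a related methyltransferase, differed by 0.50 and 0.58. The Polycomb gene Cbx2, whose product helps to silence Hox genes, differed by 0.33 and 0.35. Kmt2a, Kmt2d and Cbx2 were higher at the adjusted p over both steps in all 17 settings tried.

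Small RNAs lie within the Hox clusters, and 9 of 16 listed noncoding genes were measured. None was called in any comparison, and with limma 0 were lower and 2 higher over both steps at an unadjusted p under 0.05, beside 21.3% and 27.9% of all genes. The mature forms of the miR-196 and miR-10 families are shown because in the mouse miR-196 represses Hoxb8, Hoxc8, Hoxd8 and Hoxa7. Capitals mark the seed, bases 2 to 8, and the sequences are from RefSeq (GRCm38.p6).
mmu-miR-196a-5p: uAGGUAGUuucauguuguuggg
mmu-miR-196b-5p: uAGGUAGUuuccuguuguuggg
mmu-miR-10a-5p: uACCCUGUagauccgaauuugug
mmu-miR-10b-5p: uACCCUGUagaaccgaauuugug
The miR-196 forms share 1 seed and the miR-10 forms another. Mir196b, in the Hoxa cluster, read 7.10 ± 0.14, 7.40 ± 0.01 and 7.40 ± 0.01 (mean ± SD, n = 3) in the order of the steps. It differed by 0.30 with trypsin (SE 0.06, adjusted p = 0.0115 with limma) and by 0.30 over both steps (adjusted p = 0.00647), but its adjusted p reached 0.473 under the other settings. Mir196a-1 differed by -0.05 and Mir196a-2 by 0.22 over both steps, the latter with an adjusted p of 0.0288 that rose to 0.555. Mir10a and Mir10b lay at 4.97 ± 0.44 and 3.99 ± 0.51 before trypsin, below the median of the olfactory receptor genes (6.62). The arrays were labelled from total RNA, so a row of a miRNA gene may read its precursor.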

How the data were processed

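Total RNA was hybridised to 9 arrays, per the labels. The deposited values are linear intensities in 35512 rows; how the authors corrected background, summarised probes and scaled arrays is not given in the sources used here, and the submitters' processing notes name limma. Rows were named through GEO's platform annotation (21789 with 1 symbol, 1621 with several, 12102 unlisted), and symbols updated with the RefSeq table of GRCm38.p6, used otherwise only for neighbour order and the printed sequences. The row of highest mean stood for each gene.

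Log2(intensity + 1) was fitted with limma 3.58.1 in R 4.3.3, with 1 mean per group over all 9 arrays and Benjamini-Hochberg adjustment over 19938 genes, and checked on simulated data. Thresholds follow the submitters' design text, read as adjusted p; it does not name mock sorted against untrypsinized. Every Hox gene could be named. Values per array are given for called members and, where fewer than 6 were called in a comparison, for those of largest difference up to 6; other lists' called members are named, and further ones were chosen after their values were seen. The members and lists were chosen with earlier results of these data known.

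Same-numbered mock sorted and trypsinized arrays deviated together (correlations 0.53, 0.29 and 0.29), though the labels do not state a pairing. Mock sorted and untrypsinized arrays gave 0.32, 0.18 and 0.06, and trypsinized and untrypsinized arrays 0.11, 0.04 and -0.04. The main fit used no pairing, so its p-values are unpaired, and the replicate number entered as a block only in an alternative fit. Alternatives covered the pseudocount, a filter on dim genes, scaling, rows per gene, the variance trend, the minimum fold, a replicate block and the removal of each array in turn.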

Additional observations from a re-analysis of the deposited data

How the results depend on the processing

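The 5 genes called over both steps held under most alternatives. Hoxd8 was called in all 3 comparisons in 17 of 17 settings, Hoxc6 and Hoxc8 over both steps in 17 of 17, Hoxd9 with trypsin and over both steps in 17 and with the mock sort in 15, and Hoxd4 over both steps in 16. With no minimum fold, the counts were 8 lower and 3 higher with trypsin, 5 lower with the mock sort, and 10 lower and 4 higher over both steps. With a pseudocount of 16, 1 Hox gene was called lower with the mock sort, since Hoxd9 (-0.57) fell short of the fold. With arrays set to a common median, 8 were called lower over both steps (Hoxa5 at -0.63, Hoxb9 at -0.61 and Hoxc10 at -0.61 were added), and the median Hox difference was -0.16 with trypsin and -0.16 over both steps. With quantile normalization it was -0.15 and -0.20. By sign, 20 Hox genes were lower and 17 higher with trypsin as deposited, and 28 and 9 with either scaling. At the adjusted p over both steps, 16 were lower and 2 higher with a common median, and 20 and 1 with quantile normalization. The median of all genes over both steps also moved, from 0.05 to -0.09 with a common median and -0.04 with quantile normalization. Shares of all genes under these scalings are not given, so these larger counts are not read as a result about Hox genes. Leaving out each array in turn gave 2 to 3 Hox genes called lower with trypsin, 1 to 2 with the mock sort and 4 to 5 over both steps.

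With the replicate number as a block, 2, 2 and 5 Hox genes were called lower in the 3 comparisons, and 378, 240 and 954 of all genes were called in either direction. At the adjusted p alone the blocked fit put 6 Hox genes lower and 5 higher with trypsin, 4 lower with the mock sort, and 11 lower and 6 higher over both steps. Shares of all genes at the adjusted p alone are not given for this fit, so these counts have no background beside them. With the mock sort, the gene that no longer passed was Hoxb9. Averaging the rows of a gene changed no Hox value, since each has 1 row. Precision for small differences is limited by signal: 16 of 37 members lay above the 95th percentile of olfactory receptor genes in no group. The alternatives were run on the further Hox genes and on the cofactors and regulators after their values were seen.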
